A study of Mus musculus with 24 samples.

Results

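Muscle stem cells (MuSC, also called satellite cells) and mesenchymal stromal cells (MSC) of mouse hindlimb muscle were compared for how their transcripts changed 1 day after injury. The quantity compared was the injury change in MuSC minus the injury change in MSC, each on the log2 scale, for every gene that had enough counts. Of the 24 RNA sequencing libraries in the series, the labels of 12 put them in the groups needed: 3 of injured MuSC, 3 of uninjured MuSC, 3 of injured MSC and 3 of uninjured MSC. Of 52997 gene symbols in the count table, 16263 passed the filter on low counts and were tested. All mice were C57BL/6, aged 8 weeks. No genotype other than the strain is given. Injured muscle was taken 1 day after cardiotoxin, a snake venom toxin that kills muscle fibers, and uninjured muscle had no toxin. MuSC were sorted as cells without CD45, CD31 and Sca1 and with Vcam1, and MSC as cells without CD45 and CD31 and with Sca1 and PDGFRa. About 1000 cells were sorted per library. The series describes the 3 libraries of a group as biological replicates and does not say whether mice were pooled, and each p-value measures the spread between these libraries.

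Satellite cells lie against the muscle fiber and are quiescent in healthy muscle. Damage to the fiber makes them leave quiescence, enlarge, make ribosomes and enter the cell cycle under the control of Myod1 and related transcription factors. Mesenchymal stromal cells, known also as fibro-adipogenic progenitors, lie between the fibers and make much of the matrix there, and after damage they release cytokines and growth factors and divide. Both cells leave a resting state in the same tissue at the same time, so that setting their responses side by side separates what they share from what is unequal between them.

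In counts, the 12 libraries held 2301202 to 7649841 reads assigned to genes, and Pearson's r of log2 CPM (counts scaled to library size) between replicates of a group was 0.971 to 0.989 across genes. Levels below are CPM scaled by TMM, given for replicates 1, 2 and 3 in that order or as mean ± SD (n = 3), and log2 differences carry an approximate SE. Pecam1 (CD31) and Ptprc (CD45), genes of the lineages sorted out, were at 1.51 CPM or less in all 12 libraries. The sum of 14 leukocyte markers was at most 9.41 CPM in any of them. For 14 endothelial markers the sum was 99.1 to 122 CPM in uninjured MSC and 13.5 to 20.9 CPM in injured MSC. It was 32.2 to 49.6 CPM in uninjured MuSC and 16.2 to 19.3 CPM in injured MuSC, and 0 of the 14 were called in the difference. Red blood cell markers were at 51.9, 1.79 and 0.444 CPM in uninjured MSC. The part of endothelial and red blood cell RNA in the results was not tested. Stromal transcripts were uneven in injured MuSC. Pdgfra, which encodes a sort marker of MSC, was at 0.298, 48.8 and 25.4 CPM in injured MuSC, against 0.194, 0.339 and 0 CPM in uninjured MuSC. Replicates 2 and 3 of injured MuSC were high and replicate 1 was at the uninjured level. Sca1, a sort marker of MSC, is encoded by Ly6a, whose level was 2.23, 12.8 and 6.62 CPM in injured MuSC, against 0, 0 and 0.589 CPM in uninjured MuSC, with all 3 injured MuSC libraries above the uninjured ones, and at 2029 ± 479.9 CPM in injured MSC and 2886 ± 217 CPM in uninjured MSC. Its rise in MuSC was 4.84 ± 0.94 (adjusted p = 0.000521), and its difference of 5.35 ± 1.03 (adjusted p = 0.00328) was lost without replicates 2 and 3 of injured MuSC and with limma voom. Over 15 stromal genes, the sum was 1961 to 2764 CPM in injured MuSC and 4321 to 5029.6 CPM in uninjured MuSC, against 37819 to 55216 CPM in injured MSC and 149856 to 182552 CPM in uninjured MSC. That sum follows the members with the highest levels and does not give the course of the others. In MuSC 5 of the 15 rose and 5 fell, with a median log2 change of 2.33. Results that rest on stromal transcripts are given below with and without replicates 2 and 3 of injured MuSC. Leaving both out leaves 1 injured MuSC library and less power for every gene. A call lost in that setting, here and below, therefore does not show that those libraries made the result. Tenocyte markers were at 296 CPM in uninjured MuSC replicate 3 and at 12.8 and 10.5 CPM in its fellow libraries, and their part in the results was not tested. In sorted pools, a smaller share of cells with a transcript and less of it per cell cannot be told apart.

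Genes called in both populations nearly all moved the same way. Across 8536 genes with a mean of at least 20 CPM in 1 of the 4 groups, the injury changes of MuSC and MSC were related with Pearson's r = 0.683 and Spearman's rho = 0.739, a description across genes, which are not independent. Of 4339 genes called in both populations at an adjusted p below 0.05 (edgeR quasi-likelihood test, Benjamini-Hochberg), 4172 (96.2%) had the same sign. Those 4172 were 47.5% of the 8787 genes called in at least 1 population, and 4448 (50.6%) were called in 1 only. Among all tested genes, 3477 (21.4%) rose and 2841 (17.5%) fell in MuSC, and 2977 (18.3%) rose and 3831 (23.6%) fell in MSC. DNA replication genes showed this common part, since all 26 listed members rose in both populations.

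The difference between the responses passed the test for 1257 genes (7.73% of those tested). It was higher in MuSC for 914 genes (5.62%) and lower in MuSC for 343 (2.11%), and 669 and 195 of these differed by over 2-fold. A higher difference arose in several ways. Of the 914 genes, 150 rose in both populations and 270 rose in MuSC with no call in MSC. Another 131 (0.806% of all genes) rose in MuSC and fell in MSC. A further 269 fell in MSC with no call in MuSC, 91 fell in both, and 3 were called in neither. Of the 343 lower genes, 110 rose in both populations, 119 rose in MSC with no call in MuSC, 72 fell in MuSC with no call in MSC, 36 (0.221% of all genes) fell in MuSC and rose in MSC, and 6 fell in both. Counts of list members below are to be read beside the shares of all tested genes given here and in the paragraph above.

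**Figure D1:**
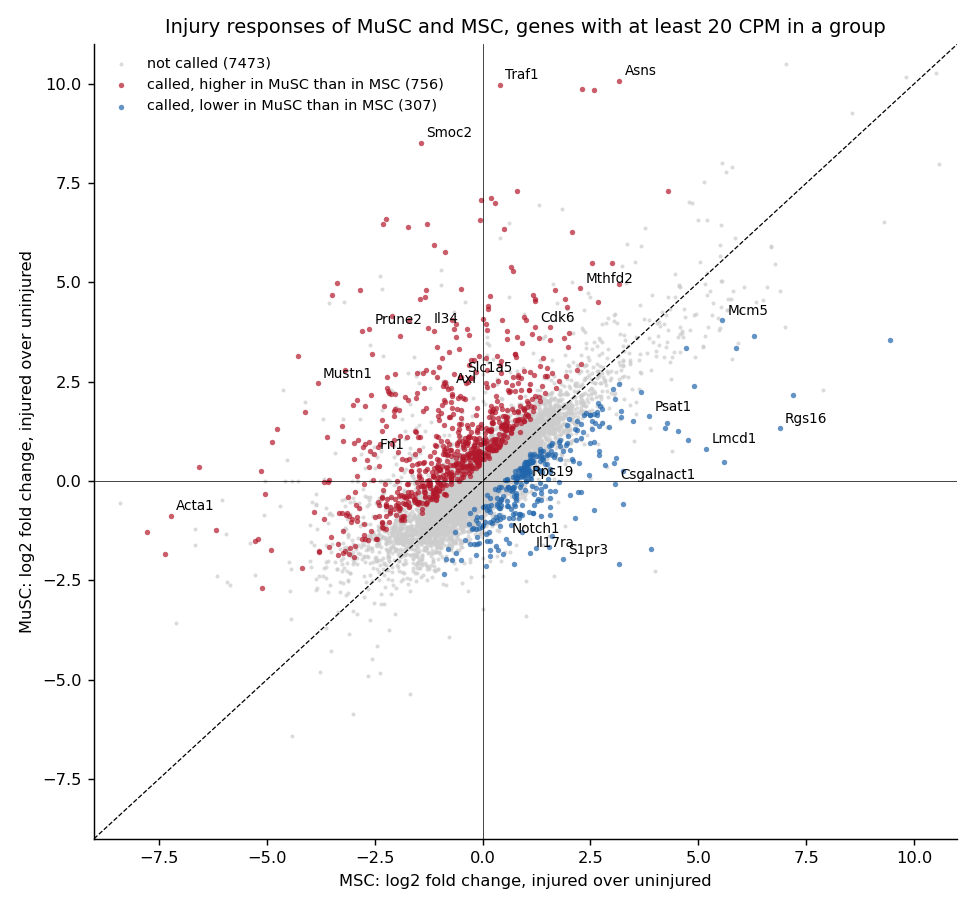
Log2 injury change in MuSC (vertical axis) against that in MSC (horizontal axis) for genes with at least 20 CPM in a group; each point is a gene, red and blue mark genes whose changes differed, the dashed line marks equal changes, and 3 genes lie outside the axes. Most genes follow the line, and Slc1a5 and Axl lie above 0 in MuSC and below 0 in MSC, with S1pr3 and Il17ra the other way round.

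The split between higher and lower calls depended on how the libraries were scaled. The median difference over all genes was 0.13 on the log2 scale with TMM over 24 libraries. It was 0.12 with the RLE method and -0.10 with TMMwsp, a TMM variant for many zeros. With the 12 libraries alone, TMM gave 678 higher and 1206 lower genes and a median of -0.17, and RLE gave 928 higher and 633 lower with a median of 0.04. Centring the median at 0 gave 679 higher and 486 lower genes. TMM compares each library with 1 reference library, and the choice among the 24 moved every difference by -0.32 to 0.09. Leaving out uninjured MSC replicate 1 changed the reference and gave 400 higher and 708 lower, but 687 and 272 with the scaling of 24 libraries kept. Under all 6 scalings, 476 genes were called higher and 330 lower with the same sign. Of 120 named genes that were called, 64 were called with the same sign in all 24 alternatives, and a lost call, where one is given below, is 1 of those alternatives in which the gene was no longer called.

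**Figure D2:**
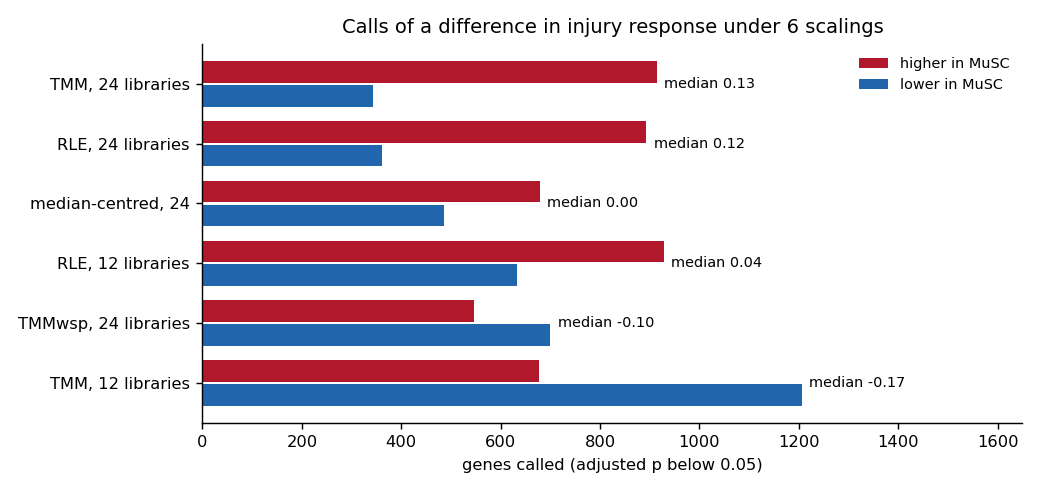
Number of genes called higher (red) or lower (blue) in MuSC than in MSC under each of 6 scalings, with the median log2 difference over all genes beside the bars. Higher calls outnumber lower ones under 4 scalings, and lower calls outnumber higher ones with TMMwsp and with TMM over 12 libraries.

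Of the 131 genes that rose in MuSC and fell in MSC, those with the smallest p are given first. Slc1a5 encodes a glutamine carrier and lies on chromosome 7, 16781340 to 16798274 (GRCm38, as are all gene positions here). It was at 271, 269 and 243 CPM in injured MuSC, against 42.8, 44.7 and 40.6 CPM in uninjured MuSC. In MSC it was at 466, 531 and 477 CPM in injured MSC, against 790.3, 691 and 587 CPM in uninjured MSC. All 3 injured MuSC libraries were above, and all 3 injured MSC libraries below, their uninjured counterparts, a lack of overlap that 49.5% of all tested genes showed in MuSC and 55.0% in MSC, and the difference was 3.10 ± 0.17 (adjusted p = 5.62e-11). Axl, a receptor tyrosine kinase that binds Gas6 (chromosome 7, 25757273 to 25788705), was at 324, 322 and 294 CPM in injured MuSC, against 55.8, 56.9 and 72.1 CPM in uninjured MuSC. Its MSC libraries held 644, 756 and 696 CPM in injured MSC, against 1166, 1072 and 1244 CPM in uninjured MSC. Neither pair overlapped, the difference was 3.08 ± 0.27 (adjusted p = 1.58e-07), and the level in injured MuSC was still below that in injured MSC. Jpt1 (chromosome 11, 115497353 to 115514387) was at 381, 316 and 340.2 CPM in injured MuSC, against 97.4, 99.7 and 62.4 CPM in uninjured MuSC. It had 241, 217 and 238 CPM in injured MSC, against 425, 371 and 355 CPM in uninjured MSC, so that it was higher in injured MuSC than in injured MSC and lower in uninjured MuSC than in uninjured MSC. The difference for Jpt1 was 2.73 ± 0.19 (adjusted p = 3.45e-09).

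The other 3 genes with the smallest p in this class showed the same lack of overlap. Nrp1, a co-receptor for semaphorins and VEGF, had 47.1 ± 3.19 CPM in injured MuSC and 4.89 ± 1.43 CPM in uninjured MuSC, against 173 ± 19.6 CPM in injured MSC and 298 ± 22.1 CPM in uninjured MSC, with a difference of 4.04 ± 0.36 (adjusted p = 5.32e-07). Tsc22d1, a leucine zipper protein induced by TGF-beta, had 214 ± 49.6 CPM in injured MuSC and 99.1 ± 9.85 CPM in uninjured MuSC, against 171 ± 6.85 CPM in injured MSC and 481 ± 41.6 CPM in uninjured MSC, with a difference of 2.61 ± 0.22 (adjusted p = 5.11e-08). Mustn1, a small nuclear protein of muscle and skeleton, had a difference of 6.28 ± 0.59 (adjusted p = 3.43e-07) that was mostly made in MSC, where it had 12.6 ± 5.38 CPM in injured MSC and 178 ± 26.3 CPM in uninjured MSC. Its level in MuSC was 3.9 ± 1.01 CPM in injured MuSC and 0.68 ± 0.0927 CPM in uninjured MuSC. Il34 and Met rose and fell in the same way. Il34, a ligand of the receptor Csf1r, was at 57.3, 33.2 and 49.7 CPM in injured MuSC, against 3.87, 1.69 and 3.73 CPM in uninjured MuSC. It was at 18, 12.4 and 10.8 CPM in injured MSC, against 37.2, 34.5 and 28 CPM in uninjured MSC, and the difference was 5.11 ± 0.68 (adjusted p = 4.3e-05). Met, the receptor for hepatocyte growth factor that takes part in satellite cell activation, was at 89.4, 68.7 and 91.1 CPM in injured MuSC, against 32.3, 39.7 and 31.6 CPM in uninjured MuSC. In MSC it had 1.04 ± 0.508 CPM in injured MSC and 5.29 ± 4.08 CPM in uninjured MSC, and the difference was 3.60 ± 0.62 (adjusted p = 0.000483). Prune2 had 97.6 ± 8.69 CPM in injured MuSC and 7.08 ± 1.84 CPM in uninjured MuSC, against 2.86 ± 1.77 CPM in injured MSC and 17.4 ± 3.4 CPM in uninjured MSC, and differed by 6.44 ± 0.59 (adjusted p = 5.48e-07). The calls of these 9 genes held in all 24 alternatives.

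**Figure D3:**
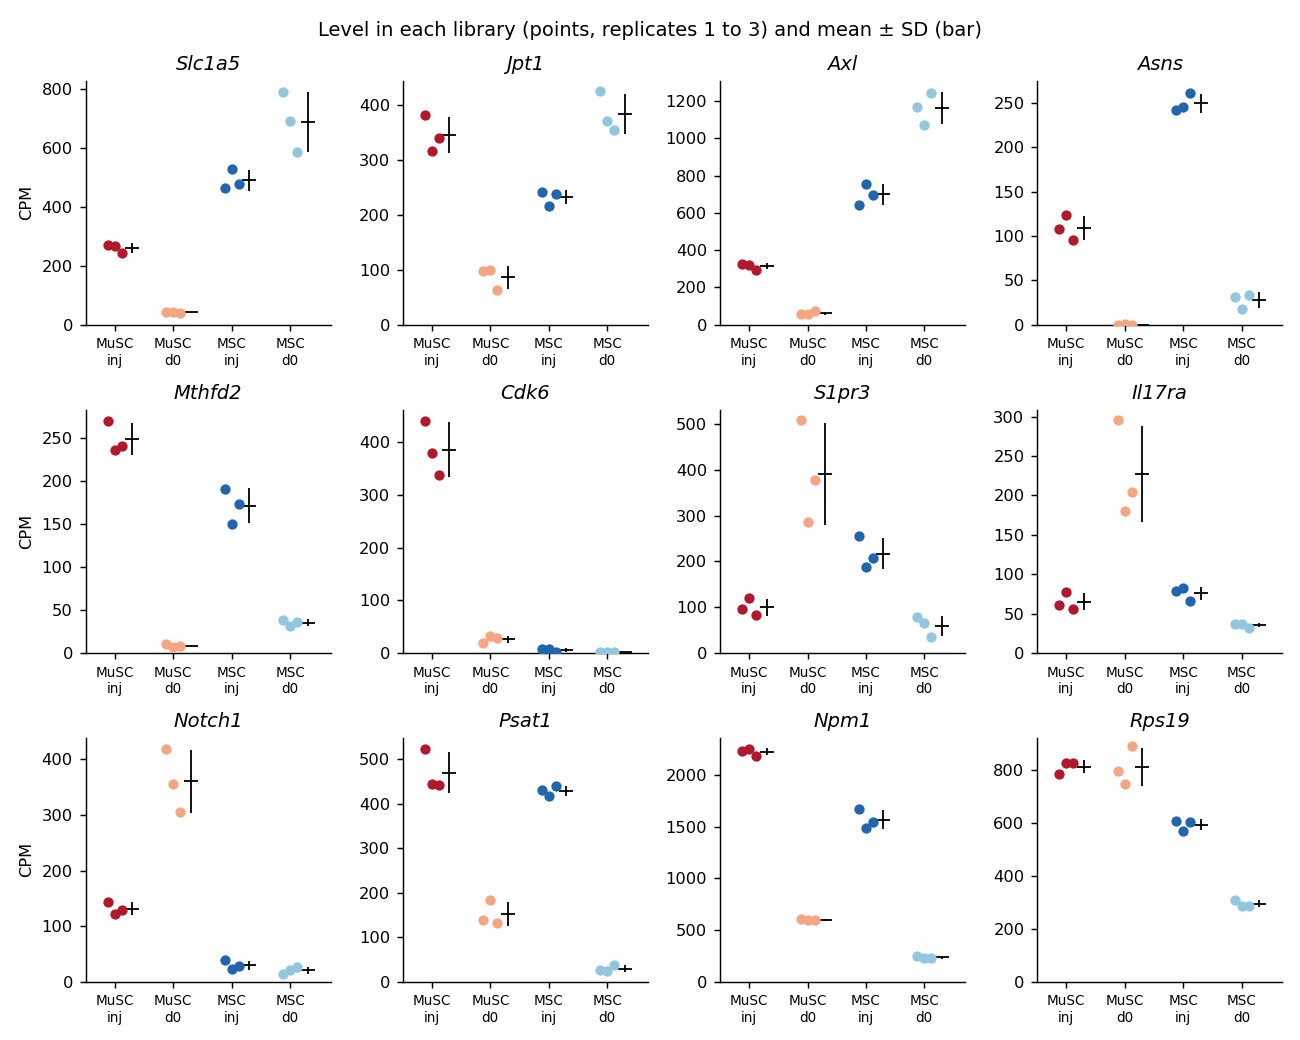
CPM of 12 genes in each library (vertical axis from 0, points for replicates 1 to 3, dash and bar for mean ± SD, n = 3), in injured MuSC, uninjured MuSC, injured MSC and uninjured MSC from left to right. Slc1a5, Jpt1 and Axl are higher in injured than uninjured MuSC and lower in injured than uninjured MSC, S1pr3, Il17ra and Notch1 have the reverse order of means, and Rps19 overlaps in MuSC and is higher in injured than uninjured MSC.

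Asns, Mthfd2 and Psat1, enzymes of amino acid and one-carbon metabolism, rose in both populations, Asns and Mthfd2 by more in MuSC and Psat1 by more in MSC. They are targets of ATF4, the transcription factor that is translated when a cell lacks amino acids or its endoplasmic reticulum is loaded. Asns makes asparagine, Mthfd2 is a mitochondrial folate enzyme, and Psat1 takes part in serine synthesis. The RefSeq promoters of these 3 genes (GRCm38.p6, the 120 bases before the RefSeq gene start, 5′ to 3′) are shown because the genes stand in 1 list, differ in response to both sides, and are unequal in the motif. The gene positions given below are from GENCODE, whose starts differ. For Mthfd2 and Psat1 the whole stretch shown lies inside the GENCODE gene, and sequence before their GENCODE starts was not searched. For Asns the 3′ part of the stretch lies inside the GENCODE gene, and the marked match is in that part. Capitals mark a match to TGATGNAA, a form of the C/EBP-ATF response element, searched on both strands of the 250 bases before the start.
Asns, chr6:7693210-7693329, minus strand: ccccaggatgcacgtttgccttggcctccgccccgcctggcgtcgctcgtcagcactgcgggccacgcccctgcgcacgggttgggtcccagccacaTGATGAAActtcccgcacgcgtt
Mthfd2, chr6:83317605-83317724, minus strand: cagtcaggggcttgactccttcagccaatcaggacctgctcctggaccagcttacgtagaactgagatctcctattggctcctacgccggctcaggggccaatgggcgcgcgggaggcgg
Psat1, chr19:15925060-15925179, minus strand: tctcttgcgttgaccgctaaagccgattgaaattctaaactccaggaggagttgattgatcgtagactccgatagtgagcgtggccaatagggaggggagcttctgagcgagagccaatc
Of all 27025 promoters, 3.53% held a match, and of the 17 genes on the list for ATF4 and the unfolded protein response 4 did: Asns, Chac1, Herpud1 and Slc7a11. Of these 4, Asns differed upward and Herpud1 downward, and Chac1 and Slc7a11 were not called. Aars, a transfer RNA synthetase gene outside that list, also held a match and differed by 0.82 ± 0.22 (adjusted p = 0.0232), with 12 lost calls. Whether the motif bears on the response was not tested.

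Asns (chromosome 6, 7675169 to 7693254) was at 108, 124 and 96.1 CPM in injured MuSC, against 0, 0.339 and 0 CPM in uninjured MuSC. In MSC it was at 242, 245 and 262 CPM in injured MSC, against 31.8, 17.7 and 33.8 CPM in uninjured MSC. Only 1 read was counted in uninjured MuSC, so that the ratio of injured to uninjured MuSC from summed counts was 1429 with a 95% counting interval of 256 to 56455. The fitted difference, 6.92 ± 0.98 (adjusted p = 0.000114), depends on that count in size. Mthfd2 (chromosome 6, 83305691 to 83325908) was well counted, at 269, 235 and 239.8 CPM in injured MuSC, against 10.3, 7.12 and 7.85 CPM in uninjured MuSC. It had 190.4, 150.4 and 173 CPM in injured MSC, against 38.9, 31.8 and 36.2 CPM in uninjured MSC, and its difference was 2.60 ± 0.32 (adjusted p = 8.28e-06). Injured MuSC passed injured MSC in level, while uninjured MuSC was below uninjured MSC. Psat1 (chromosome 19, 15904678 to 15947337) went to the other side, with 523, 445 and 444 CPM in injured MuSC, against 140.0, 183 and 133 CPM in uninjured MuSC. It had 431, 417 and 439.6 CPM in injured MSC, against 26, 24.9 and 37.8 CPM in uninjured MSC, a rise in MSC of 3.86 beside 1.63 in MuSC, and a difference of -2.23 ± 0.29 (adjusted p = 2.14e-05). These 3 calls held in all 24 alternatives.

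Over the 17 genes of that list, 4 were higher and 3 lower in MuSC, with a median difference of 0.33 beside 0.13 over all genes. Atf4 itself, the factor, rose by 0.89 in MuSC and 0.31 in MSC and differed by 0.59 ± 0.16 (adjusted p = 0.0244). Hspa5, the chaperone of the endoplasmic reticulum, differed by 0.95 ± 0.17 (adjusted p = 0.00082) and rose in both. Xbp1, a transcription factor of the unfolded protein response, and Herpud1, a protein of degradation there, were lower in MuSC with differences of -0.50 and -0.77, having fallen in MuSC with no call in MSC. Transfer RNA synthetases, which share the ATF4 response in part, all rose in both populations (19 of 19), with 2 higher, 1 lower and a median difference of 0.00. Cars, for cysteine, differed by 0.90 ± 0.17 (adjusted p = 0.00114), a call lost without uninjured MSC replicate 1. Dars, for aspartate, differed by -0.66 ± 0.15 (adjusted p = 0.00545), a call lost without injured MuSC replicates 2 and 3.

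Of 16 NRF2 targets and metallothioneins, which serve redox defence, 12 rose in MuSC and 8 in MSC, beside 21.4% and 18.3% of all tested genes. The test of the difference called 3 of them higher in MuSC, beside 5.62% of all tested genes. Txn1, thioredoxin, was at 702, 718 and 757 CPM in injured MuSC, against 111, 117 and 127 CPM in uninjured MuSC. It had 787, 838 and 806 CPM in injured MSC, against 464, 394 and 507 CPM in uninjured MSC, and every injured library was above every uninjured one in both populations. Its difference was 1.78 ± 0.16 (adjusted p = 1.57e-07). The other two, G6pdx of the pentose phosphate path and the ferritin light chain Ftl1, rose in MuSC with no call in MSC and differed by 1.24 ± 0.18 (adjusted p = 5.45e-05) and 1.07 ± 0.14 (adjusted p = 1.41e-05). Ftl1 has near-identical copies in the genome, and its count is uncertain for that reason.

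Cdk6, which drives entry into S phase, was at 440.0, 380.3 and 337 CPM in injured MuSC, against 19, 32.2 and 28.9 CPM in uninjured MuSC. It was low in MSC, at 8.67, 7.46 and 2.7 CPM in injured MSC, against 3.02, 2.91 and 2.22 CPM in uninjured MSC, and its difference was 2.65 ± 0.50 (adjusted p = 0.00148). E2f1, a transcription factor of S phase genes, was at 33.3, 32.8 and 30.5 CPM in injured MuSC, against 4.07, 5.08 and 7.66 CPM in uninjured MuSC. Its MSC libraries had 32.7, 27.8 and 31.6 CPM in injured MSC, against 43.2, 40.5 and 32.9 CPM in uninjured MSC, with every injured library slightly below every uninjured one but no call. The difference was 2.85 ± 0.46 (adjusted p = 0.000277). The inhibitor Cdkn1a (p21) rose beside them, with 119 ± 28.1 CPM in injured MuSC and 27.2 ± 10.9 CPM in uninjured MuSC, against 88.4 ± 13.9 CPM in injured MSC and 126 ± 17.2 CPM in uninjured MSC, and a difference of 2.65 ± 0.45 (adjusted p = 0.000902). Plk2, a kinase induced in early G1, had 158 ± 25.8 CPM in injured MuSC and 18.3 ± 3.49 CPM in uninjured MuSC, against 37.2 ± 7.66 CPM in injured MSC and 35.3 ± 2.28 CPM in uninjured MSC, and a difference of 3.02 ± 0.36 (adjusted p = 1.04e-05). Of 18 G1 cyclins and CDK inhibitors, 11 rose in MuSC and 8 in MSC, beside 21.4% and 18.3% of all tested genes. In that list 4 were higher and 1 lower in MuSC, beside 5.62% and 2.11% of all tested genes. The median of that list, 0.16, changed sign with the scaling. For mitosis genes, 19 of 20 rose in MuSC and 18 in MSC, and none differed by edgeR, DESeq2 or limma voom, with 0 at an unadjusted p below 0.05 in edgeR. Their sum was uneven between replicates, at 1941, 540.3 and 1202 CPM in injured MuSC, against 881, 156 and 453 CPM in injured MSC.

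Further higher calls included Csf1 and Vcan, with levels in injured MuSC below those in injured MSC, and Dusp10 and Traf1, with levels above them. Csf1, the growth factor of macrophages, was at 144, 182 and 157 CPM in injured MuSC, against 5.23, 8.13 and 7.07 CPM in uninjured MuSC. It had 491, 377 and 428 CPM in injured MSC, against 203, 196 and 159 CPM in uninjured MSC, rose in both populations and differed by 3.37 ± 0.34 (adjusted p = 1.2e-06), with injured MuSC still below injured MSC. Dusp10, a phosphatase of stress kinases, was at 61.1, 77.9 and 63.1 CPM in injured MuSC, against 9.49, 14.2 and 13 CPM in uninjured MuSC. It was flat in MSC, with 20.5 ± 2.95 CPM in injured MSC and 19.2 ± 1.99 CPM in uninjured MSC, and differed by 2.38 ± 0.37 (adjusted p = 0.000174). Traf1, an adaptor of TNF receptors, had no read in uninjured MuSC and 31.2, 20.6 and 23 CPM in injured MuSC, at least 109.8-fold higher against a floor of 3 counts over the group. In MSC it had 4.57 ± 1.47 CPM in injured MSC and 3.37 ± 2.17 CPM in uninjured MSC, with no call. Vcan, a matrix proteoglycan, was at 21.9, 41.3 and 36.7 CPM in injured MuSC, against 2.13, 2.37 and 2.55 CPM in uninjured MuSC. Its level in MSC was far above both, with 445 ± 36.6 CPM in injured MSC and 417 ± 33.7 CPM in uninjured MSC, and the difference was 3.72 ± 0.50 (adjusted p = 7.92e-05). Tagln2, an actin-binding protein, rose in both and differed by 1.23 ± 0.19 (adjusted p = 0.000135). These calls held in all 24 alternatives.

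For transcripts much higher in MSC, the result turned on which injured MuSC libraries were used. Of the 551 higher genes that rose in MuSC, 48 had a level in injured MuSC of at most 10% of that in injured MSC. Without replicates 2 and 3 of injured MuSC, 16 of these 48 were still called, beside 295 of the other 503. Smoc2, a matrix protein, was at 1.64, 123 and 68.3 CPM in injured MuSC, against 0.387, 0 and 0 CPM in uninjured MuSC. It was at 1815, 1877 and 1961 CPM in injured MSC, against 4912, 4383 and 5908 CPM in uninjured MSC, and its call was lost without those libraries and with limma voom. Podn, a small proteoglycan, was at 0, 5.3 and 4.02 CPM in injured MuSC, and its difference of 6.24 turned to -0.69 without replicates 2 and 3, its call being lost with limma voom too. Of 15 stromal identity genes, 6 were higher with all libraries and 0 without those libraries. Postn, a matricellular protein, had 7.29, 21.2 and 12.3 CPM in injured MuSC and 1 read in uninjured MuSC, against 519 ± 76 CPM in injured MSC and 529 ± 245 CPM in uninjured MSC, and its call was lost with limma voom only. Icam1, an adhesion molecule for leukocytes, was at 7.29, 24.6 and 7.4 CPM in injured MuSC with 1 read in uninjured MuSC, and had 127 ± 25.1 CPM in injured MSC and 105 ± 10.2 CPM in uninjured MSC. Its call held in all 24 alternatives. The part of stromal RNA in these values was not tested.

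**Figure D4:**
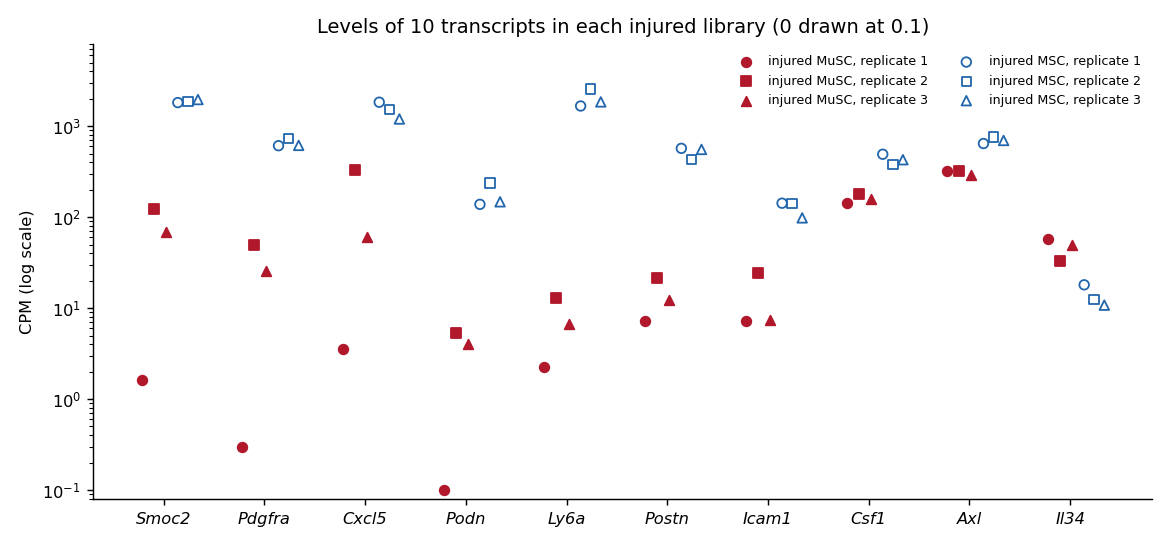
CPM on a log axis of 10 transcripts in the 3 injured MuSC libraries (filled symbols) and the 3 injured MSC libraries (open symbols), with a value of 0 drawn at 0.1. Smoc2, Pdgfra, Cxcl5 and Podn are lowest in injured MuSC replicate 1, while Csf1 and Axl are alike in all 3.

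The 269 genes that fell in MSC with no call in MuSC, and the 91 that fell in both, held matrix, basement membrane and lipid genes. Fn1, fibronectin, was at 23.1, 6.58 and 30.1 CPM in injured MuSC, against 16.8, 7.46 and 12.4 CPM in uninjured MuSC. In MSC it was at 629, 659 and 402 CPM in injured MSC, against 3764, 3774 and 2154 CPM in uninjured MSC, where all injured libraries were lower. Its difference was 3.19 ± 0.54 (adjusted p = 0.00109), a call lost with limma voom. Lama2, the laminin chain of the muscle basement membrane, was at 78, 102 and 112 CPM in injured MuSC, against 169.6, 181 and 189.9 CPM in uninjured MuSC. It had 81.4, 111 and 90.9 CPM in injured MSC, against 465, 467 and 559 CPM in uninjured MSC, so that it fell in both with no overlap and by more in MSC, with a difference of 1.51 ± 0.26 (adjusted p = 0.000453). Tapbp, which loads peptide on MHC class I, also fell in both and differed by 1.07 ± 0.17 (adjusted p = 0.000209). Timp2, an inhibitor of matrix proteases, had 94.6 ± 13.4 CPM in injured MuSC and 194 ± 9.21 CPM in uninjured MuSC, against 145 ± 54.2 CPM in injured MSC and 1199 ± 253 CPM in uninjured MSC, and a difference of 2.02 ± 0.43 (adjusted p = 0.00571), lost without injured MuSC replicates 2 and 3. Ccl11, the chemokine eotaxin, had 185 ± 34 CPM in injured MSC and 713 ± 240.0 CPM in uninjured MSC, and differed by 2.69 ± 0.57 (adjusted p = 0.00563), with 2 lost calls. Over all tested genes, 23.6% fell in MSC, 17.5% fell in MuSC and 5.62% were higher in MuSC, the shares to set beside the list counts that follow. Of 18 integrins and laminins, 12 fell in MSC and 4 in MuSC, and 3 were higher in MuSC. Of 17 collagens, 14 fell in MSC and 8 in MuSC, and 3 were higher, or 1 without injured MuSC replicates 2 and 3. Col6a3 and Col8a1, which are among the 3, rose in MuSC with no call in MSC, and had 3 and 10 lost calls. Col6a3 was at 3.57, 23.6 and 17.9 CPM in injured MuSC, against 5.23, 0 and 0.589 CPM in uninjured MuSC, so that the libraries overlapped. Its level in injured MSC was 559 ± 10.7 CPM. Col8a1 had 63.5 ± 18.5 CPM in injured MuSC and 4.1 ± 2.57 CPM in uninjured MuSC, against 518 ± 183 CPM in injured MSC. Of 17 genes of cholesterol synthesis, 11 fell in MSC and 2 in MuSC, with a median difference of 0.92, and 2 passed the test of the difference, or 0 without injured MuSC replicates 2 and 3. Those were Srebf2, the transcription factor of the pathway, at 0.97 ± 0.23 (adjusted p = 0.00985) with 3 lost calls, and the enzyme gene Msmo1 at 1.43 ± 0.43 (adjusted p = 0.0462) with 16.

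Transcripts known from muscle fibers were summed over 14 genes. The sum was 254 to 353 CPM in injured MuSC and 571 to 634 CPM in uninjured MuSC, against 14.96 to 25.9 CPM in injured MSC and 182 to 469.5 CPM in uninjured MSC. Of 12 members tested, 9 fell in MuSC and 11 in MSC, and 7 were higher in MuSC, with a median difference of 3.68, or 3.40 with a member at 0 in a group set to the floor. Acta1, skeletal actin, was at 100.4, 109 and 120.3 CPM in injured MuSC, against 209.9, 196 and 195 CPM in uninjured MuSC. It was at 0, 2.32 and 1.26 CPM in injured MSC, against 248, 188 and 80.4 CPM in uninjured MSC, and its difference was 6.35 ± 0.78 (adjusted p = 3.87e-05). Ttn, titin, was at 23.8, 18.9 and 22.5 CPM in injured MuSC, against 14.7, 16.6 and 23.2 CPM in uninjured MuSC. It had 0.699, 1.99 and 0.18 CPM in injured MSC, against 29, 28 and 46.2 CPM in uninjured MSC, with injured and uninjured MuSC overlapping and injured MSC far below, and a difference of 5.38 ± 0.58 (adjusted p = 1.66e-06). Whether these reads came from the sorted cells or from fiber RNA was not tested.

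On the lower side, genes of the ribosome formed the list with the largest share of calls. Of 21 cytosolic ribosomal protein genes, 21 rose in MSC and 9 in MuSC, and 20 were lower in MuSC, beside 2.11% of all genes. The median difference was -0.76 beside 0.13 over all genes. It was negative under all 6 scalings, from -0.76 to -1.06, with 20 lower in each. Without injured MuSC replicates 2 and 3 it was -0.77, with 13 lower. Their sum was 31538, 32828 and 31914 CPM in injured MuSC, against 27034, 25966 and 30242.5 CPM in uninjured MuSC. It was 26018, 24574 and 26148 CPM in injured MSC, against 13739.5, 13174 and 12023 CPM in uninjured MSC. Uninjured MuSC thus held more than uninjured MSC did, and the populations were closer after injury. Rps19 (chromosome 7, 24884371 to 24889806), a protein of the small subunit, was at 785, 829 and 828 CPM in injured MuSC, against 797, 749 and 892 CPM in uninjured MuSC. It had 609, 570.1 and 604 CPM in injured MSC, against 309.8, 288 and 285 CPM in uninjured MSC, overlapping in MuSC and not in MSC, with a difference of -1.01 ± 0.15 (adjusted p = 0.000138). Ribosomal protein genes have processed pseudogenes that could take part of their reads.

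Genes that assemble ribosomes rose steeply in both populations, 20 of 21 in MuSC and all 21 in MSC, and 7 were lower in MuSC. The median difference was -0.61, and the number lower was 7 to 19 over the 6 scalings and 3 without injured MuSC replicates 2 and 3. Npm1, nucleophosmin of the nucleolus (chromosome 11, 33152287 to 33163206), was at 2229, 2255 and 2188 CPM in injured MuSC, against 609, 594 and 598 CPM in uninjured MuSC. It had 1668, 1489 and 1545 CPM in injured MSC, against 253, 232 and 226 CPM in uninjured MSC, a rise with no overlap in either population, and differed by -0.83 ± 0.14 (adjusted p = 0.000362). Nop56 and Nop16, proteins of the nucleolus, differed by -1.03 ± 0.19 (adjusted p = 0.000812) and -1.0 ± 0.19 (adjusted p = 0.00123). Polr3g, a subunit of RNA polymerase III, had 32.9 ± 5.36 CPM in injured MuSC and 15.9 ± 3.66 CPM in uninjured MuSC, against 11.5 ± 2.3 CPM in injured MSC and 0.409 ± 0.23 CPM in uninjured MSC, and differed by -3.72 ± 0.67 (adjusted p = 0.000872). Among the 26 DNA replication genes, Mcm5 of the replicative helicase differed by -1.51 ± 0.35 (adjusted p = 0.00979), a call lost without injured MuSC replicates 2 and 3, and no other passed. Dctd, a deaminase that makes dUMP, was at 97.9, 92.8 and 90.9 CPM in injured MuSC, against 41.2, 45.4 and 32 CPM in uninjured MuSC. It had 56.5, 53.2 and 50.3 CPM in injured MSC, against 3.69, 1.12 and 1.78 CPM in uninjured MSC, and its difference of -3.27 ± 0.51 (adjusted p = 0.000184) rested on a low level in uninjured MSC.

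**Figure D5:**
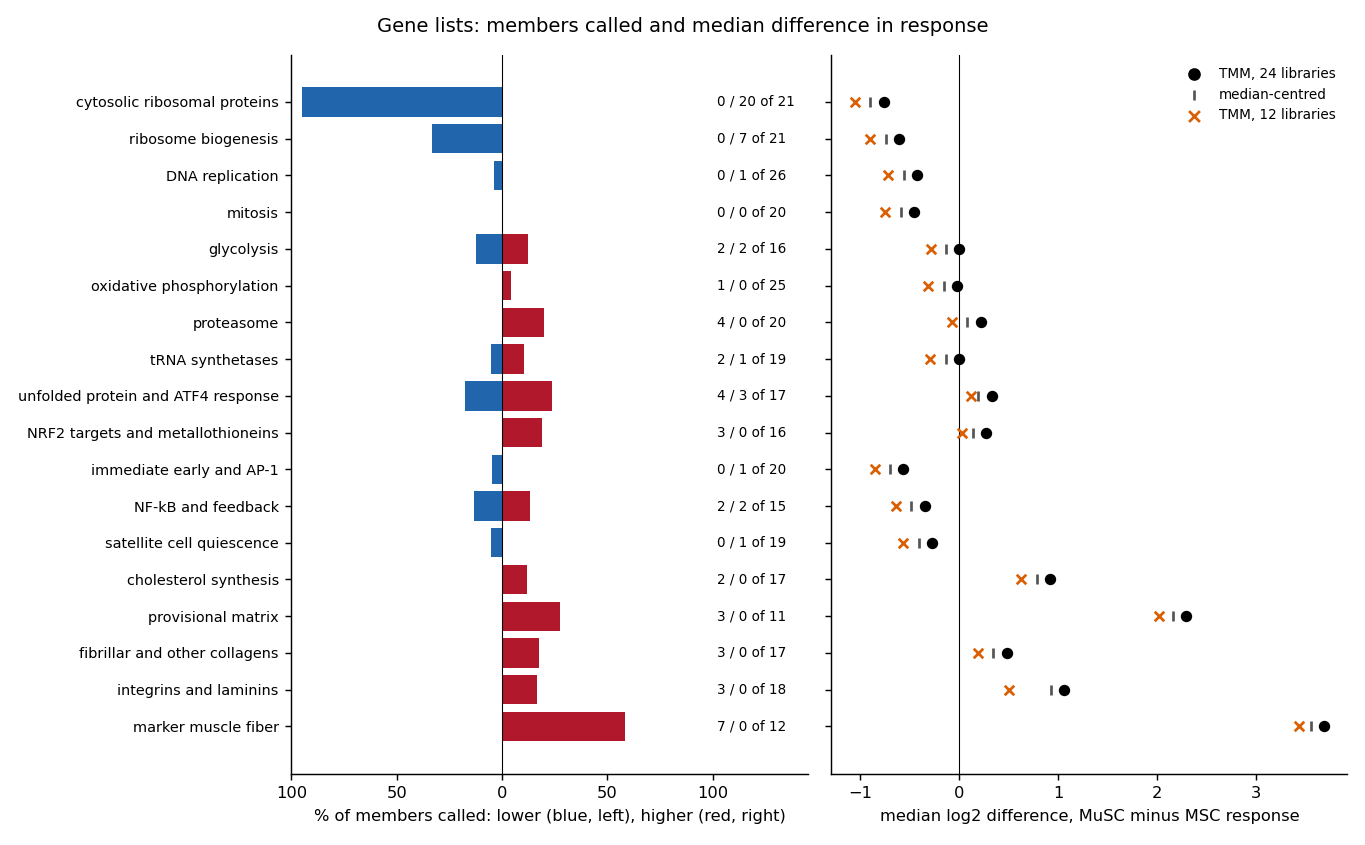
Left, percent of the tested members of 18 gene lists called lower (blue) or higher (red) in MuSC, with the counts as higher / lower of tested; right, the median log2 difference under 3 scalings. Cytosolic ribosomal proteins have 20 of 21 members lower, and the medians of proteasome genes lie on both sides of 0.

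Glycolysis had calls on both sides. Of 16 genes 12 rose in each population, 2 were higher and 2 lower in MuSC, and the median difference was 0.00. Pkm, pyruvate kinase, was at 2099, 1888 and 1838 CPM in injured MuSC, against 995, 946 and 1059.9 CPM in uninjured MuSC. It had 1741, 1455 and 1627 CPM in injured MSC, against 413, 400.1 and 423 CPM in uninjured MSC and differed by -1.01 ± 0.16 (adjusted p = 0.000231). Gapdh differed by -0.68 ± 0.15 (adjusted p = 0.0043), lost without injured MuSC replicates 2 and 3, and Tpi1 by 0.59 ± 0.15 (adjusted p = 0.0136), with 8 lost calls. Proteasome genes rose in all 20 cases in both populations. The 4 called higher in MuSC, Psmc4 at 0.59 with 14 lost calls among them, were not called with TMMwsp, median centring or TMM over 12 libraries.

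Several genes rose in MSC with no call in MuSC, or rose far more there. Rgs16, a regulator of G protein signalling, was at 143, 134 and 117 CPM in injured MuSC, against 47.2, 76.9 and 33.6 CPM in uninjured MuSC. It was at 76, 81.6 and 66.1 CPM in injured MSC, against 0, 2.02 and 0 CPM in uninjured MSC, with a difference of -5.54 ± 0.77 (adjusted p = 9.6e-05). Only 9 reads of Rgs16 were counted in uninjured MSC, so that the size of the difference depends on them. Over the alternatives it was -10.2 to -4.85. Csgalnact1, an enzyme of chondroitin sulfate synthesis, was at 18.9, 42.9 and 28.7 CPM in injured MuSC, against 36.2, 24.7 and 33.2 CPM in uninjured MuSC. It had 263, 244 and 261 CPM in injured MSC, against 34, 21.3 and 36.7 CPM in uninjured MSC, overlapping in MuSC and well apart in MSC, and differed by -3.13 ± 0.44 (adjusted p = 7.56e-05). Lmcd1, a cofactor of GATA factors, had 14.8 ± 8.18 CPM in injured MuSC and 8.3 ± 0.361 CPM in uninjured MuSC, against 45.1 ± 5.84 CPM in injured MSC and 1.28 ± 0.683 CPM in uninjured MSC, and a difference of -4.37 ± 0.56 (adjusted p = 2.29e-05). Clcf1, a cytokine of the IL-6 family, had 126 ± 7.21 CPM in injured MuSC and 151 ± 24.6 CPM in uninjured MuSC, against 35.7 ± 6.25 CPM in injured MSC and 7.73 ± 3.64 CPM in uninjured MSC, and differed by -2.48 ± 0.53 (adjusted p = 0.00526). Wisp1, a matricellular Wnt target, had 101 ± 10.8 CPM in injured MuSC and 68.1 ± 7.82 CPM in uninjured MuSC, against 119 ± 30.0 CPM in injured MSC and 13.8 ± 0.443 CPM in uninjured MSC, and differed by -2.52 ± 0.57 (adjusted p = 0.00871), with 2 lost calls. Vcam1, the sort marker of MuSC, was at 445, 409 and 361 CPM in injured MuSC, against 672, 557 and 578 CPM in uninjured MuSC. It had 131, 79.7 and 97.2 CPM in injured MSC, against 58.5, 68.8 and 58.6 CPM in uninjured MSC, a rise in MSC at adjusted p = 0.0375. Its difference was -1.30 ± 0.38 (adjusted p = 0.0386), which 14 of 24 alternatives lost, and cells were selected on this protein in MuSC. Junb, a subunit of AP-1, was the member of 20 immediate early genes called lower, at -1.52 ± 0.38 (adjusted p = 0.0174), with 2 lost calls. The number called lower in that list was 1 to 7 over the 6 scalings. Of the 20, 10 fell and 3 rose in MuSC, against 3 that fell and 6 that rose in MSC, with a median difference of -0.57.

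Of the 36 genes that fell in MuSC and rose in MSC, those with the smallest p are given first. Il17ra, the receptor of interleukin 17A (chromosome 6, 120463247 to 120487559), was at 61.7, 77.4 and 56.3 CPM in injured MuSC, against 296, 181 and 204 CPM in uninjured MuSC. It was at 79.3, 82.6 and 66.7 CPM in injured MSC, against 37.4, 37 and 32.4 CPM in uninjured MSC. Neither pair overlapped, and the populations ended at similar levels after injury, with a difference of -2.90 ± 0.33 (adjusted p = 5.92e-06). Rasa3, a GTPase activator for Ras, was at 48.5, 44.3 and 51.9 CPM in injured MuSC, against 85.4, 90.2 and 79.1 CPM in uninjured MuSC. It had 88.1, 99.6 and 85.4 CPM in injured MSC, against 36.4, 37 and 48.6 CPM in uninjured MSC, again with no overlap, and differed by -1.98 ± 0.24 (adjusted p = 7.32e-06). Smg6, an endonuclease of nonsense-mediated decay, had 30.2 ± 3.05 CPM in injured MuSC and 54.2 ± 16.6 CPM in uninjured MuSC, against 143 ± 17.7 CPM in injured MSC and 48.5 ± 8.48 CPM in uninjured MSC, and differed by -2.41 ± 0.29 (adjusted p = 6.2e-06). Tspan7, a tetraspanin, had 91.5 ± 8.46 CPM in injured MuSC and 238 ± 33.5 CPM in uninjured MuSC, against 52.6 ± 12.4 CPM in injured MSC and 17.3 ± 3.69 CPM in uninjured MSC, and differed by -3.0 ± 0.40 (adjusted p = 7.35e-05). N6amt1, a methyltransferase, differed by -1.54 ± 0.21 (adjusted p = 3.11e-05).

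Notch1, a receptor whose signal keeps satellite cells quiescent, was at 144, 121 and 129.8 CPM in injured MuSC, against 418, 357 and 306 CPM in uninjured MuSC. It was low in MSC, at 39, 22.4 and 27.5 CPM in injured MSC, against 13.9, 20.6 and 26.9 CPM in uninjured MSC, where the libraries overlapped and the rise was 0.55 ± 0.21 (adjusted p = 0.0375). The difference was -2.0 ± 0.28 (adjusted p = 5.32e-05), made mostly by the fall in MuSC. Over 17 Notch pathway genes, 10 fell in MuSC and 7 in MSC, beside 17.5% and 23.6% of all tested genes. In that list 2 were higher and 2 lower in MuSC, beside 5.62% and 2.11% of all tested genes. S1pr3, a receptor for sphingosine 1-phosphate (chromosome 13, 51408639 to 51422797), was at 95.5, 121 and 82.9 CPM in injured MuSC, against 507, 286 and 378 CPM in uninjured MuSC. It had 256, 189 and 208 CPM in injured MSC, against 78.8, 65.4 and 35.5 CPM in uninjured MSC, with no overlap, and differed by -3.83 ± 0.71 (adjusted p = 0.00239). Adamts1, a protease of proteoglycans, had 42.6 ± 4.11 CPM in injured MuSC and 80.4 ± 3.91 CPM in uninjured MuSC, against 136 ± 8 CPM in injured MSC and 75.5 ± 10.8 CPM in uninjured MSC, and differed by -1.77 ± 0.37 (adjusted p = 0.00371). Tnip1, a brake on NF-kB, had 30.2 ± 9.15 CPM in injured MuSC and 57.1 ± 10.5 CPM in uninjured MuSC, against 48.1 ± 4.28 CPM in injured MSC and 31.2 ± 2.37 CPM in uninjured MSC, and differed by -1.55 ± 0.28 (adjusted p = 0.000946). Among 15 genes of NF-kB and its feedback, 6 rose and 2 fell in MuSC, against 10 that rose in MSC. Over all tested genes 21.4% rose and 17.5% fell in MuSC, and 18.3% rose in MSC. By the test of the difference 2 of the 15, Traf1 and Icam1, were higher in MuSC and 2 were lower. The median difference of the list was -0.35. The calls of the difference for the 9 genes with values in these 2 paragraphs held in all 24 alternatives.

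All 19 listed quiescence genes of satellite cells fell in MuSC, beside 17.5% of all tested genes. In MSC 13 of them fell, beside 23.6% of all tested genes, and 6 were not called. The list was chosen with earlier results of these data known, so that these counts are a description and not a test. By the test of the difference 1 of the 19, Spry1, was lower in MuSC. Spry1, an inhibitor of growth factor signalling, was at 114, 107 and 112 CPM in injured MuSC, against 451, 395 and 361 CPM in uninjured MuSC. It had 58.3, 66.5 and 69.4 CPM in injured MSC, against 56.1, 63.4 and 95.1 CPM in uninjured MSC, apart in MuSC and overlapping in MSC, and differed by -1.71 ± 0.36 (adjusted p = 0.00437), a call lost without injured MuSC replicates 2 and 3. Msc, musculin, an inhibitor of Myod1, was at 120.1, 118 and 130.5 CPM in injured MuSC, against 502, 467 and 497 CPM in uninjured MuSC. It had 18.5 ± 2.68 CPM in injured MSC and 26.2 ± 4.71 CPM in uninjured MSC, and differed by -1.49 ± 0.38 (adjusted p = 0.0195), with 4 lost calls. Ndrg1, induced by hypoxia and in growth arrest, fell in both populations, with log2 changes of -1.96 in MuSC and -0.86 in MSC, and differed by -1.10 ± 0.23 (adjusted p = 0.0028). Of 15 genes of the hypoxia response, Ndrg1 was the 1 called lower, while 3 were called higher, and the median difference was 0.36. Over all tested genes 2.11% were lower and 5.62% higher, with a median of 0.13.

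Among the 10 largest differences in each direction, 9 genes not yet given each had a mean under 10 CPM in at least 1 group. Itgbl1, which resembles integrin beta subunits, had 2.8 ± 0.803 CPM in injured MuSC and 0.586 ± 0.589 CPM in uninjured MuSC, against 44.7 ± 21.2 CPM in injured MSC and 334 ± 50.4 CPM in uninjured MSC, and differed by 4.93 ± 0.73 (adjusted p = 0.000132). Mmp23, a metalloproteinase, had 2.38 ± 1.85 CPM in injured MuSC and 0.372 ± 0.194 CPM in uninjured MuSC, against 55.7 ± 16.8 CPM in injured MSC and 260.4 ± 92.1 CPM in uninjured MSC, and differed by 4.85 ± 0.96 (adjusted p = 0.00257), a call lost with limma voom. Cpe, carboxypeptidase E, had 8.2 ± 3.63 CPM in injured MuSC and 0.309 ± 0.296 CPM in uninjured MuSC, against 27.5 ± 14.9 CPM in injured MSC and 69.3 ± 27.2 CPM in uninjured MSC, and differed by 5.97 ± 1.07 (adjusted p = 0.00111). These 3 rose in MuSC and fell in MSC, and the libraries of Cpe overlapped in MSC. Klf2, a transcription factor, and Necab3 fell in MSC with no call in MuSC and differed by 4.92 ± 0.84 (adjusted p = 0.000438) and 4.73 ± 0.78 (adjusted p = 0.000321). On the lower side, Chd7, a chromatin remodeller, had 87.9 ± 18.4 CPM in injured MuSC and 166 ± 5.55 CPM in uninjured MuSC, against 2.17 ± 0.466 CPM in injured MSC and 0.483 ± 0.356 CPM in uninjured MSC, and differed by -3.05 ± 0.51 (adjusted p = 0.000399). Tmem51, a membrane protein, had 15.2 ± 1.89 CPM in injured MuSC and 48.2 ± 11.9 CPM in uninjured MuSC, against 16.1 ± 0.603 CPM in injured MSC and 5.44 ± 1.91 CPM in uninjured MSC, and differed by -3.21 ± 0.52 (adjusted p = 0.000281). Adamts8, a protease, was at 10.9, 10.4 and 9.09 CPM in injured MuSC, against 64.7, 19.3 and 15.3 CPM in uninjured MuSC, and at 6.44 ± 1.45 CPM in injured MSC and 0.429 ± 0.604 CPM in uninjured MSC, with a difference of -5.62 ± 1.12 (adjusted p = 0.00271). Chd7, Tmem51 and Adamts8 fell in MuSC and rose in MSC. Ggta1, an enzyme that adds galactose to glycans, rose in MSC with no call in MuSC and differed by -3.81 ± 0.71 (adjusted p = 0.00146).

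For genes that only 1 population transcribes, a difference of responses has no clear size. In the 2 MSC groups together, 1012 of the tested genes had at most 3 counts, and 1164 had at most 3 in the 2 MuSC groups. For 895 of the 1828 genes with 0 counts in a group, the test of the difference gave a p of about 1 whatever happened in the other population. Myod1, the transcription factor of activated satellite cells, was at 2225, 2335 and 2175 CPM in injured MuSC, against 342, 426 and 280.4 CPM in uninjured MuSC. It had no read in any MSC library, so that its rise of 2.69 ± 0.17 (adjusted p = 2.48e-08) in MuSC had nothing to be set against. Fgfr4, an FGF receptor of satellite cells, had 292 ± 35.3 CPM in injured MuSC and 635 ± 38.8 CPM in uninjured MuSC and 7 reads in all MSC libraries. Cxcl5, a chemokine for neutrophils, was at 3.57, 333 and 60.5 CPM in injured MuSC with no read in uninjured MuSC, at least 546-fold higher in the sums. It was at 1833, 1520.4 and 1198 CPM in injured MSC, against 0.503, 0.224 and 0.222 CPM in uninjured MSC, and no difference was called, with the injured MuSC libraries spread widely.

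Levels of the differing genes were more alike between the populations after injury than before. Among 1063 called genes with at least 20 CPM in a group, the gap between MuSC and MSC (log2 of CPM plus 1) was smaller after injury in 859 (80.8%). For all genes at that level it was smaller in 62.6%. The levels in uninjured cells enter both this gap and the difference of responses, so that the first share is a description and not a test.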

How the data were processed

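Sorted MuSC and MSC from injured and uninjured hindlimb muscle were profiled by RNA sequencing. Per the labels' protocols, polyadenylated RNA was reverse transcribed with oligo(dT), amplified by PCR, tagged with Nextera XT and read as pairs of 25 bases, which marks neither strand nor molecule, so reads of overlapping genes cannot be told apart and PCR copies are counted. The authors deposited a count of reads for each symbol and library, unnormalized and in whole numbers. The submitters' processing notes name STAR 2.5.4, featureCounts and mm10; its settings, the gene models and the handling of multiply mapped reads are not stated there.

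Counts were fitted in edgeR 4.0.16 (R 4.3.3, package data.table, 1.17.8) after its filter on low counts over 8 groups, which left 16263 genes. TMM scaling and 1 mean per group over all 24 libraries gave 16 residual degrees of freedom for the robust quasi-likelihood test. Comparisons were injury in MuSC, injury in MSC and the difference between them, adjusted by Benjamini-Hochberg, with an adjusted p below 0.05 called. The SE of a log2 value is that value divided by the square root of F. Intervals cover counting error only, at 95%, and 3 counts set the floor for a count of 0. The test was checked on simulated counts.

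Alternatives were 20 planned and 4 added after seeing the data, among them RLE and TMMwsp scaling, no filter, DESeq2 1.42.0, limma voom (3.58.1), a replicate block and each of the 12 libraries left out. Named genes were the 10 largest differences each way called also without each library, with at least 20 CPM in a group and 4 counts in every group; the 6 smallest p of each opposite class; up to 3 called members of each of 47 lists; 4 genes per population nearly silent in a group; and 5 sort genes. Atf4, Hspa5, Xbp1 and Herpud1 were named after their values were seen. The text describes the genes of the first 2 rules and part of the others, and some are not reported here. Genes and lists were chosen with earlier results of these data known. Positions are from GENCODE vM21 and matched 126 of 127 named genes.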

Additional observations from a re-analysis of the deposited data

Results flagged for a closer look

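The responses of MuSC and MSC to injury differed by edgeR's test of the difference itself in 914 genes higher and 343 genes lower in MuSC, of which 131 rose in MuSC and fell in MSC and 36 fell in MuSC and rose in MSC. In 12 genes of those opposite classes with the smallest p, the log2 difference was 3.10 for Slc1a5, 2.73 for Jpt1, 3.08 for Axl, 2.61 for Tsc22d1, 4.04 for Nrp1 and 6.28 for Mustn1. It was -2.90 for Il17ra, -2.41 for Smg6, -1.98 for Rasa3, -1.54 for N6amt1, -2.0 for Notch1 and -3.00 for Tspan7. Groups of 3 libraries are too small for a test of single outlying libraries.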

How the results depend on the processing

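Counts of higher, lower, opposite upward in MuSC and opposite downward in MuSC genes are given in that order. Without injured MuSC replicates 2 and 3 they were 478, 160, 84 and 25, with 1504 genes falling in MuSC. At an adjusted p below 0.01 they were 437, 148, 66 and 13, with 1781 falling in MuSC. TMMwsp gave 546, 700, 84 and 62. The 12 libraries alone gave 1206 lower and 133 opposite downward genes, and with RLE 633 and 76. Opposite downward genes numbered 59 with median centring and 55 with limma voom. Leaving out 1 library at a time gave 400 to 835 higher, 245 to 708 lower, 69 to 128 opposite upward and 23 to 66 opposite downward genes. Within MuSC 2964 to 3451 then rose and 2230 to 3533 fell, and within MSC 2502 to 3144 rose and 2652 to 3825 fell. Without uninjured MSC replicate 1, higher, lower, opposite upward and opposite downward counts were 400, 708, 69 and 66, which the change of TMM reference accounts for in part, and without uninjured MSC replicate 2 opposite downward genes numbered 23. With RLE, DESeq2 or no filter, these 4 counts and those of rises and falls in each population stayed within 1.5 times of the reported ones. Podn turned to -0.69 without injured MuSC replicates 2 and 3. Other causes were not tested.

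Of 18 same-numbered pairs of libraries, 2 correlated over 0.1 in their deviations from the group means, with r from -0.12 to 0.17. Both were injured MuSC with injured MSC, at 0.17 for replicate 1 and 0.15 for replicate 2, beside -0.01 for replicate 3. Low values of r cannot show that samples were unpaired, and whether same-numbered libraries shared mice was not tested. A replicate block gave 862 higher, 325 lower, 127 opposite upward and 29 opposite downward genes. At 3 libraries a group, small differences and genes of few counts are below what the test can call, and a call absent there does not show equal responses.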

Other observations

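Of 10 complement genes, 9 fell in MSC and 1 in MuSC, beside 23.6% and 17.5% of all tested genes, with a median difference of 1.94. C4b, a component of the classical pathway, was higher by the test of the difference, at 4.37 ± 1.27 (adjusted p = 0.0448) in edgeR. Its call was lost in 16 of 24 alternatives. The number of complement genes called higher was 0 to 4 over the 6 scalings. Of 20 Wnt pathway genes, 12 fell in MSC and 2 in MuSC, with a median difference of 1.31, and 3 were higher and 1 lower. That median was 0.60 with a member at 0 in a group set to the floor. Without injured MuSC replicates 2 and 3 it changed sign, to -0.22. Tcf7l2, a transcription factor of the pathway, differed by 0.76 ± 0.20 (adjusted p = 0.0215), with 11 lost calls. Dkk3, a secreted modulator, had no read in uninjured MuSC, and its fitted difference has no clear size. Heat shock genes rose in 10 of 13 cases in MuSC and in 12 of 13 in MSC, with Dnaja1 higher at 0.74 and Hspa9 lower at -0.66, which lost their calls in 16 and 12 alternatives. Nuclear genes of the respiratory chain rose in 22 of 25 cases in both populations, and Sdhd, a subunit of complex II, was higher at 0.96 ± 0.21 (adjusted p = 0.00571), with 2 lost calls. Of 21 interferon-stimulated genes, 10 fell in MuSC and 11 in MSC. Bst2, tetherin, was at 48.6, 45.3 and 52.1 CPM in injured MuSC, against 14.3, 18.3 and 24.7 CPM in uninjured MuSC, with every injured library above every uninjured one, and differed by 0.93 ± 0.23 (adjusted p = 0.0131), with 6 lost calls.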
